A study of Homo sapiens with 16 samples.

Results

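The 10 genes described here are 8 mucins (MUC1, MUC2, MUC4, MUC5AC, MUC5B, MUC13, MUC16 and MUC20) and 2 trefoil factors (TFF1 and TFF3), chosen by name. Every probe set that the annotation gives to one of these genes alone was taken, which left 25 probe sets of the 41097 that carry a single gene symbol, and 10 genes of 19775. A probe set is the group of short oligonucleotides with which the array reads a transcript. MUC4 had 6 probe sets, MUC5AC and MUC20 had 4 each, MUC1 had 3, MUC5B and MUC13 had 2 each, and MUC2, MUC16, TFF1 and TFF3 had 1 each. The samples were 8 established lung cancer lines, labelled as untreated: H23, H358, H460, H661, H1437, H1703, A427 and A549. Each line was cultured on plastic (2D) and on top of a thin bed of Matrigel, a basement membrane extract, under medium with 2% dissolved Matrigel (3D). Density and medium were similar in both. Each line gave 1 Affymetrix U133 Plus 2.0 array per culture, so 16 arrays were compared as 8 pairs. Single lines therefore have no replicate check, and nothing in the labels names separate cultures of a line.

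Mucins are large glycoproteins whose central repeats are covered with O-linked sugars. MUC5AC and MUC5B are the secreted mucins that form the gel of airway mucus, and MUC2 is the gel-forming mucin of the intestine. MUC1, MUC4, MUC13, MUC16 and MUC20 sit in the apical membrane of epithelial cells, where several of them also signal. Trefoil factors are small, disulphide-stabilised peptides that are secreted together with gel-forming mucins and are known for their part in epithelial repair.

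The deposited values are log2 ratios of each array to a reference of its own for each probe set, which is the median of the 16 arrays for 63.5% of all probe sets. For the others the median lies below the reference, and these are called dim here. Of the 25 probe sets, 14 had their median at the reference and 11 were dim. A value is thus high or low only against the same probe set on other arrays, and no level of one gene can be set against that of another. A line is called high for a probe set when both of its arrays lay at least 1 log2 unit above the reference, and low when both lay at least 1 below. For genes with several probe sets, the one that varied most between lines among those that were not dim, or among all where every one was dim (MUC13), is given first and called the lead probe set. The single probe sets of MUC2 and MUC16 were dim as well. The median 3D minus 2D difference over all probe sets was 0.02, and medians of the arrays lay between -0.28 and -0.07. All 16 of 16 arrays were most like the other array of their own line (r from 0.777 to 0.927). The 3 probe sets for 18S ribosomal RNA were lower in 3D in 8 of 8 lines, by 1.15 on average, from -3.45 in H23 to -0.08 in H1437. Its value is given beside the lines that stand out, and the fit between cultures was repeated with it as a covariate.

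The 10 genes marked out a few lines. H1437 was high for MUC1, MUC5AC, MUC5B, MUC16, MUC20, TFF1 and TFF3, which is 7 of the 10 genes. The share of all probe sets for which H1437 was high was not counted. Where a gene had several probe sets, the lead was also chosen for its spread over lines. Whether this count is particular to these genes was therefore not tested. H358 was high for MUC20, and no other line was high for any lead probe set. In 3D, A549 lay more than 1 log2 unit above the reference for MUC5AC, MUC5B and TFF1, as H1437 did, and did so alone for MUC13. Its TFF1 value, 3.72, was still far below the 11.09 of H1437. H358 likewise lay above 1 in 3D for MUC1, MUC5B, MUC16 and MUC20, as H1437 did, and did so alone for MUC4. Its MUC16 value was 2.45, against 5.81 in H1437. A427, H23, H661 and H1703 had 0 of 25 member probe sets at least 2-fold apart between the cultures. Over all 41097 probe sets, the shares at least 2-fold higher and lower in 3D were 0.793% and 0.852% in A427, 2.62% and 3.1% in H23, 3.29% and 4.13% in H661, and 1.35% and 1.43% in H1703.

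**Figure D1:**
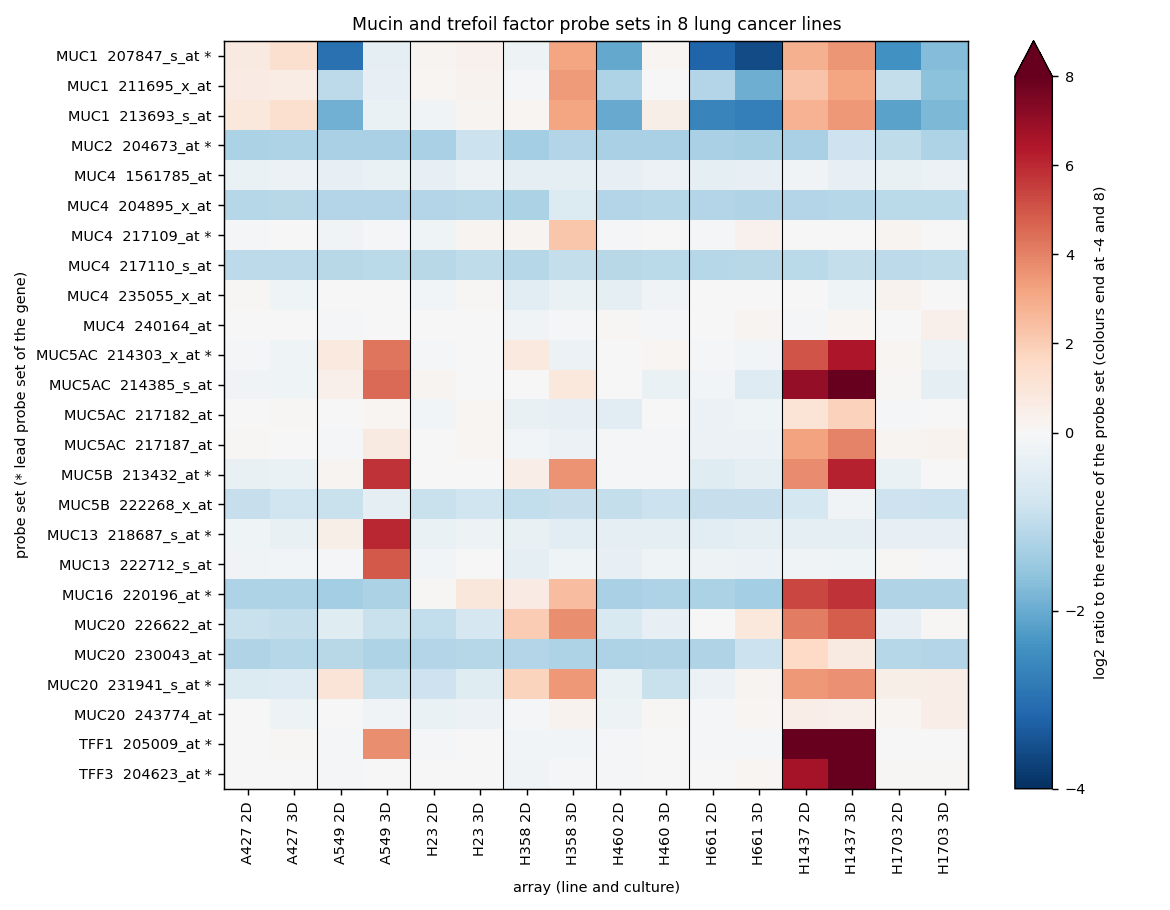
Log2 ratio to the reference of the probe set (colour) for all 25 probe sets of the 10 genes (rows, lead probe sets starred) on the 16 arrays (columns, 2D and 3D of each line side by side). Red cells include those of H1437 for MUC1, MUC5AC, MUC5B, MUC16, MUC20, TFF1 and TFF3. In the 3D arrays they also include A549 for MUC5AC, MUC5B, MUC13 and TFF1, and H358 for MUC1, MUC4, MUC5B, MUC16 and MUC20.

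Lines differed in 14 of the 25 probe sets (limma F test over the 7 line contrasts, Benjamini-Hochberg adjusted p under 0.05), against 61.6% of all 41097 probe sets. These covered 7 genes, MUC1, MUC5AC, MUC5B, MUC16, MUC20, TFF1 and TFF3. Without H1437 the count was 5 of 25, in MUC1, MUC16 and MUC20, and the share of all probe sets in that fit was not counted. For MUC2, MUC4 and MUC13 no probe set passed. Between cultures there was no call. With the line as a block, 0 of the 25 probe sets differed between 3D and 2D at an adjusted p under 0.05 (limma), against 2.73% of all probe sets, 0.942% higher and 1.79% lower. At an unadjusted p under 0.05 there were 6 of 25, against 21.7% of all. With the 18S level as a covariate, the count at an unadjusted p under 0.05 became 0 of 25, and 1 of all 41097 probe sets was called. The mean difference in that fit was 2.11 for MUC5B (1.43 without the covariate), 1.01 for TFF3 (0.49) and 0.04 for MUC2 (0.12), and all 10 lead probe sets kept a mean above 0. The lowest adjusted p among the members was 0.125, for the MUC1 probe set 213693_s_at. Mean differences were above 0 for 23 of 25 probe sets and for all 10 lead probe sets, of which MUC20 turned to -0.087 with quantile normalization, while 56.5% of all probe sets had a mean above 0. The median of the lead probe sets was 0.46. With 1 array per line and culture, whether lines differ in their response to culture could not be tested.

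**Figure D2:**
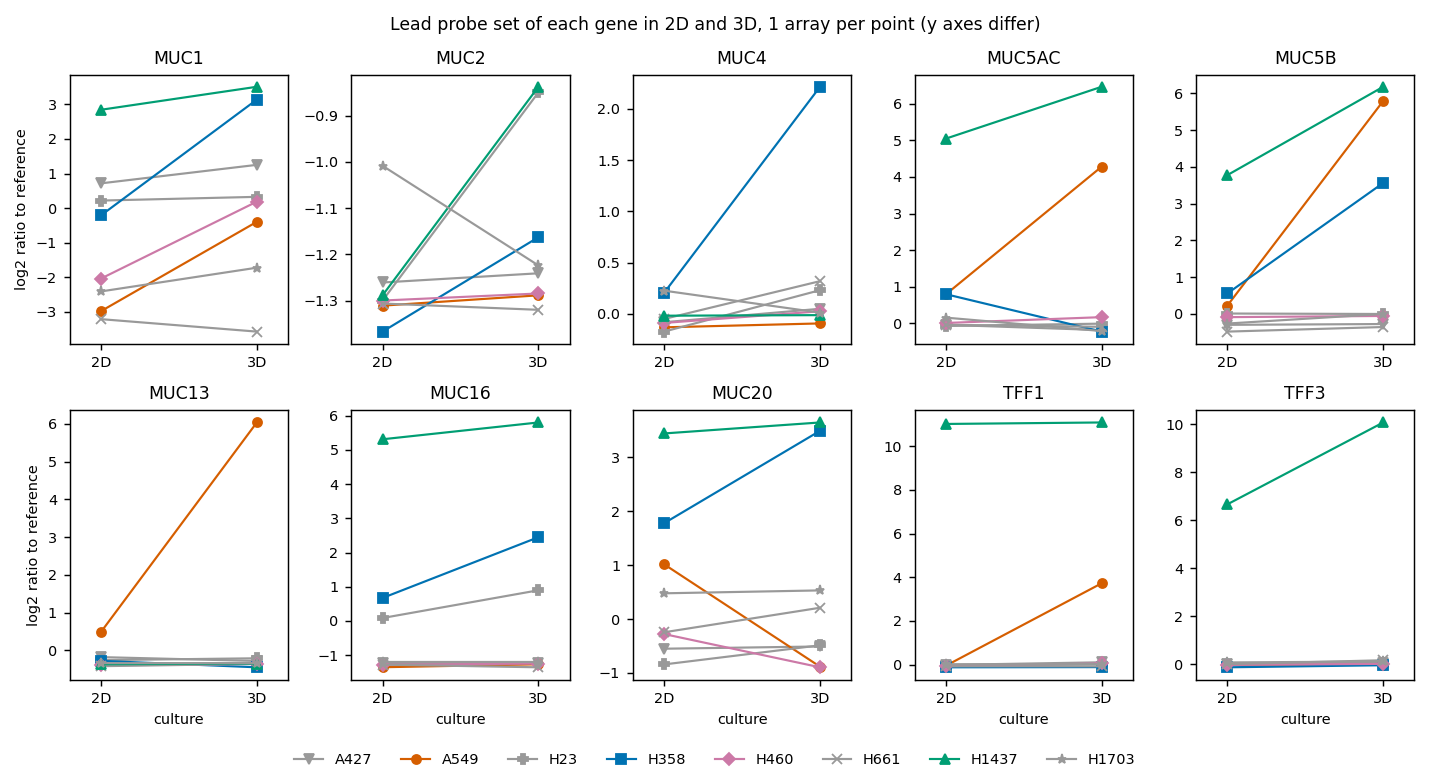
Log2 ratio of the lead probe set of each gene in 2D and 3D, 1 point per array, with a line joining the cultures of each cell line (the y axes differ between panels). H1437 is at the top for MUC1, MUC5AC, MUC5B, MUC16, MUC20, TFF1 and TFF3, and steep slopes belong to A549, H358, H460 and H1437.

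MUC1, the most widely expressed membrane mucin of epithelia, was higher in 3D in 7 of 8 lines by its lead probe set 207847_s_at. In 2D its lowest, median and highest values were -3.22, -1.13 and 2.84, and in 3D they were -3.58, 0.26 and 3.51. H1437 was high, H661 and H1703 were low, and the cultures overlapped over almost their whole range. In H358 the value was -0.21 in 2D and 3.14 in 3D, a 10.2-fold difference within the line. A549 went from -2.99 to -0.40, which is 6.01-fold, and H460 from -2.04 to 0.19, which is 4.69-fold. In these lines MUC1 thus started at or below the reference in 2D, and only in H358 did the 3D array approach H1437. The remaining pairs were 0.71 in 2D and 1.25 in 3D in A427, 0.22 and 0.32 in H23, -3.22 and -3.58 in H661, 2.84 and 3.51 in H1437, and -2.41 and -1.73 in H1703. The mean difference was 1.23 ± 1.32 (SD, n = 8 lines; limma adjusted p = 0.136), and it was 0.92 without H358. The other MUC1 probe sets, 211695_x_at and 213693_s_at, had means of 0.63 and 1.11. They read 10.8-fold and 8.22-fold in H358 but 1.67-fold and 3.18-fold in A549. The first was higher in 3D in 5 of 8 lines and the second in 7. In H1703 and A427, 211695_x_at differed by -0.68 and -0.01, against 0.69 and 0.54 for the lead.

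Promoter entries were matched by symbol for 5 of the 10 genes, MUC1, MUC2, MUC4, MUC13 and MUC16. Those of 3 membrane mucins are shown because each of these genes stood out in a different set of lines: MUC1 in H358, A549 and H460, MUC13 in A549 and MUC4 in H358. The sequences are those of RefSeq on GRCh38.p14, the 250 bases before the gene's start, all on the minus strand (for MUC1, one of 2 overlapping entries) and written 5′ to 3′ toward the start. Capitals mark matches, on either strand, to the motifs searched.
MUC1, chr1:155192910-155193159: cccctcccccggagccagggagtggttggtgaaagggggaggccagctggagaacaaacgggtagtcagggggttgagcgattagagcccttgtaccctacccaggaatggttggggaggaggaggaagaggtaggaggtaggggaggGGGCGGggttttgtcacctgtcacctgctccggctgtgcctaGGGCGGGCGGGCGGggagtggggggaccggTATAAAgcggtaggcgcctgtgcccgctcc
MUC4, chr3:195811930-195812179: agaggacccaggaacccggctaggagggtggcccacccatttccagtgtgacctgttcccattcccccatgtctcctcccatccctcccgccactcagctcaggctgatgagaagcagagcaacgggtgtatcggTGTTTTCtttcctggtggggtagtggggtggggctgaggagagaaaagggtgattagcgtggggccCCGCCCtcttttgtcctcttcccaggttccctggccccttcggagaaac
MUC13, chr3:124934752-124935001: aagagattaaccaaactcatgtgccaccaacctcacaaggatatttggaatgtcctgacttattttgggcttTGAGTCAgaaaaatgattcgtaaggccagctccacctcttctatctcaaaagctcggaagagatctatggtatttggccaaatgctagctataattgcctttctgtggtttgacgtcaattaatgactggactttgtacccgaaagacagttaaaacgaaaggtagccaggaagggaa
The MUC1 window held a TATA box (TATAAA) from 30 to 25 bases before the start and 4 matches to the GC box (GGGCGG), 3 of which overlap one another. The MUC4 window held the forkhead motif (TGTTTNC) from 115 to 109 bases before the start and the GC box on the other strand, and the MUC13 window held the AP-1 motif (TGANTCA) from 178 to 172 bases before it. Over all 35116 RefSeq windows of this length, the TATA box was found in 10.7%, the GC box in 42.6%, the forkhead motif in 15.5% and the AP-1 motif in 6.57%, against which these matches should be read. The CCAAT box (CCAAT) was in 32.0% of all windows and in none of these 3. The GATA motif AGATAA, the hypoxia-inducible factor core ACGTG, the oestrogen response element and the HNF1 motif had no match in any of the 3. The share of G and C was 66.0% for MUC1, 60.4% for MUC4 and 41.6% for MUC13, with a median of 58.0% over all windows. Matches describe letters and were not tested as sites.

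MUC4, a large membrane mucin that binds ERBB2, stood apart in a single array. Its lead probe set 217109_at ran from -0.17 through a median of -0.07 to 0.23 in 2D and from -0.09 through 0.04 to 2.22 in 3D. The highest value was H358 in 3D, against 0.21 in 2D, a 4.03-fold difference. Every other array lay between -0.17 and 0.32. The mean difference was 0.36 ± 0.70 (SD, n = 8 lines; limma adjusted p = 0.355) and 0.12 without H358. Of the other 5 MUC4 probe sets, 204895_x_at repeated the step in H358 at a smaller size (-1.25 to -0.55), and the rest differed by less than 0.5 between the cultures in every line. MUC4 lies next to MUC20 on chromosome 3, with 0 coding genes between them.

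MUC13, a membrane mucin known mainly from the gut, stood out in A549 alone. Both of its probe sets were dim. The lead probe set 218687_s_at ran from -0.42 through -0.31 to 0.48 in 2D and from -0.45 through -0.35 to 6.04 in 3D. Both maxima were A549, where 3D was 47.0-fold above 2D, and the other 14 arrays lay between -0.45 and -0.18. The second probe set gave the same picture, with -0.05 and 4.92 in A549, a 31.3-fold difference. The mean difference of the lead was 0.68 ± 1.97 (SD, n = 8 lines; limma adjusted p = 0.510), and without A549 it was -0.01. The F test between lines did not pass (limma adjusted p = 0.183). Its residual takes in the large culture difference of A549, so this cannot show that lines are alike in MUC13.

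MUC16, the membrane mucin that carries the CA125 antigen, separated the lines into levels that both cultures shared. In 2D the values ran from -1.36 through -1.22 to 5.31 and in 3D from -1.36 through -1.21 to 5.81. H1437 was high (5.31 and 5.81), H358 lay at 0.67 and 2.45, and H23 at 0.08 and 0.90. The other 5 lines, A427, A549, H460, H661 and H1703, were low, between -1.36 and -1.20 on every array, with no order among them beyond the spread of their arrays. Between cultures, H358 differed 3.43-fold and no other line 2-fold. The mean was 0.39 ± 0.64 (SD, n = 8 lines; limma adjusted p = 0.286), or 0.19 without H358.

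MUC20, a membrane mucin described as a partner of the MET receptor, was high in H1437 and H358 in both cultures by 2 of its 4 probe sets. Its lead probe set 231941_s_at ran from -0.84 through 0.12 to 3.45 in 2D and from -0.90 through -0.14 to 3.65 in 3D. H358 went from 1.78 to 3.50, a 3.28-fold difference, and in 3D its value lay beside that of H1437. A549 moved the other way, from 1.02 to -0.88, and 2D was 3.73-fold above 3D. The 226622_at probe set gave nearly the same value for H358, 3.22-fold, but only -0.47 and -0.89 for A549. The other probe sets did not repeat the H358 difference: 230043_at, which was dim, read -1.18 and -1.23 there and counted H358 as low, and 243774_at read 1.26-fold. The size of the A549 difference in MUC20 therefore rests on 1 probe set. The mean of the lead was 0.04 ± 1.02 (SD, n = 8 lines; limma adjusted p = 0.953), and its sign turned with quantile normalization (-0.087) and without H23, H358 or H661.

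Gel-forming mucins came next. MUC5AC, the mucin of goblet cells at the airway surface, was set mainly by 2 lines. On the lead probe set 214303_x_at, 2D values ran from -0.07 through 0.08 to 5.05 and 3D values from -0.23 through -0.05 to 6.46. H1437 held both maxima, and A549 went from 0.79 to 4.28. The other 12 arrays lay between -0.23 and 0.80, so the cultures overlapped outside these lines. Within A549 the fold was 11.3 by this probe set and 17.7 by 214385_s_at, and in H1437 it was 2.67 and 1.87. The 214385_s_at probe set was dim by a narrow margin. The other 2 probe sets, 217182_at and 217187_at, read far less in A549, 1.11-fold and 1.69-fold, and 1.73-fold and 1.66-fold in H1437. In H358 the probe sets disagreed, with 3D minus 2D of -1.02 for the lead, 0.90 for 214385_s_at, and -0.04 and -0.13 for the others. The mean of the lead was 0.44 ± 1.41 (SD, n = 8 lines; limma adjusted p = 0.558), or 0.01 without A549.

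MUC5B, the mucin that submucosal glands and distal airways secrete, was higher in 3D in the same A549 and H1437 and also in H358. The lead probe set 213432_at ran from -0.48 through -0.04 to 3.77 in 2D and from -0.35 through 0.00 to 6.18 in 3D. A549 went from 0.23 to 5.79, a 47.4-fold difference. H358 went from 0.56 to 3.56, which is 8.04-fold, and H1437 from 3.77 to 6.18, which is 5.29-fold. In 3D these lines were the 3 with values above 1, whereas in 2D only H1437 was. The other 5 lines lay between -0.48 and 0.01 on every array. The mean difference was 1.43 ± 2.06 (SD, n = 8 lines; limma adjusted p = 0.236), 0.83 without A549. The second probe set, 222268_x_at, was dim and read far smaller differences, 0.54 in A549, 0.59 in H1437 and 0.04 in H358 on the log2 scale, so it did not repeat the difference in H358.

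MUC2, the intestinal gel-forming mucin, stayed under its reference on every array. Its single probe set ran from -1.37 through -1.30 to -1.01 in 2D and from -1.32 through -1.23 to -0.84 in 3D. A427, A549, H358, H460, H661 and H1703 were low, and the largest values, in H23 and H1437 in 3D, were -0.85 and -0.84. The mean difference was 0.12 ± 0.23 (SD, n = 8 lines; limma adjusted p = 0.361). MUC2, MUC5AC and MUC5B follow one another on chromosome 11 with 0 other coding genes between neighbours, so the A549 and H1437 differences in MUC5AC and MUC5B had no counterpart of 2-fold in the adjacent MUC2.

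TFF1, the trefoil factor that accompanies MUC5AC in the stomach, had the widest range of all the genes. Its values ran from -0.12 through -0.06 to 11.02 in 2D and from -0.12 through 0.04 to 11.09 in 3D. Both maxima were H1437, and 3D was there 1.05-fold above 2D. A549 went from -0.05 to 3.72, a 13.7-fold difference. The remaining 12 arrays lay between -0.12 and 0.11. The mean was 0.53 ± 1.32 (SD, n = 8 lines; limma adjusted p = 0.462), or 0.06 without A549.

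TFF3, the trefoil factor of goblet cells, was a matter of H1437 alone. It ran from -0.14 through -0.02 to 6.65 in 2D and from -0.05 through 0.04 to 10.07 in 3D. Within H1437 the difference was 10.7-fold, while the other 14 arrays lay between -0.14 and 0.16. A549 gave -0.04 and -0.03, so the line in which TFF1 was higher in 3D showed no such value for TFF3. The mean was 0.49 ± 1.18 (SD, n = 8 lines; limma adjusted p = 0.448), or 0.07 without H1437. The third family member, TFF2, lies between them on chromosome 21 and stayed between -0.18 and 0.21 on every array.

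**Figure D3:**
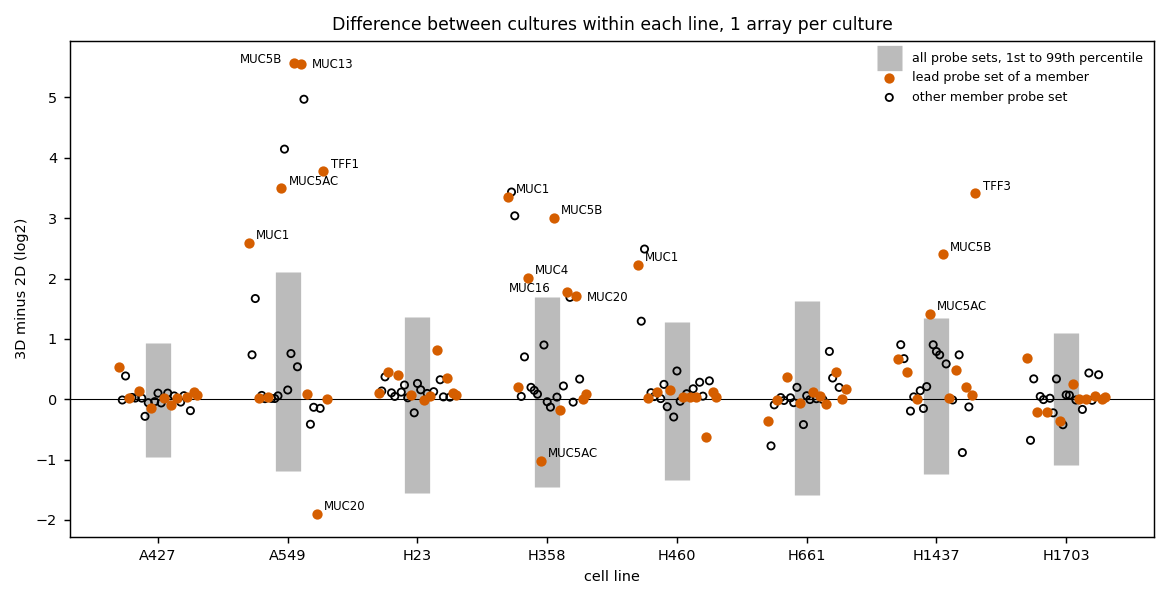
Difference of 3D minus 2D (log2, y axis) in each line for the 25 probe sets, with lead probe sets filled and grey bars for the 1st to 99th percentile over all 41097 probe sets. Points above the bars lie in A549, H358, H460 and H1437, with MUC5B and MUC13 in A549 at the top.

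Line by line, A549 held the largest differences. In that line 8 of 25 member probe sets were at least 2-fold higher in 3D, against 3.57% of all probe sets, and 1 was at least 2-fold lower, against 1.92%. They belonged to MUC1, MUC5AC, MUC5B, MUC13 and TFF1. Among 41097 probe sets ordered by their difference in A549, MUC5B was at place 23 from the top, the MUC13 probe sets at 24 and 40, a MUC5AC probe set at 72, TFF1 at 98 and MUC1 at 270. MUC20 was at place 56 from the bottom. The 18S control in A549 was lower in 3D, with a difference of -0.98.

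H358 had a different set. Again 8 of 25 probe sets were at least 2-fold higher in 3D, against 4.05% of all, and 1 was lower, against 3.29%. The higher ones belonged to MUC1, MUC4, MUC5B, MUC16 and MUC20, and MUC1 and MUC5B were the genes that A549 and H358 had in common. The lower one was the MUC5AC lead probe set, whose direction the second MUC5AC probe set did not share. The MUC1 probe sets stood at places 28, 35 and 60 from the top, MUC5B at 63 and MUC4 at 227. The 18S difference in H358 was -0.81.

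In H460, the 3 MUC1 probe sets were the only ones past 2-fold, all higher in 3D, against 2.11% higher and 2.31% lower over all probe sets. Their folds were 4.69, 2.45 and 5.61, and 2 of them stood at places 28 and 39. The 18S difference was -1.61. H1437 also had 3 of 25 probe sets higher and 0 lower, against 2.31% and 1.85% of all, from MUC5AC, MUC5B and TFF3. TFF3 stood at place 11 and MUC5B at place 60, and the 18S difference was -0.08, the smallest of the lines. In H23, where 18S differed most (-3.45), 0 of 25 probe sets passed 2-fold in either direction.

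Probe sets of one gene did not always read alike. Over the 8 lines, Pearson's r between probe sets of MUC1 was 0.976 to 0.993 for line means and 0.845 to 0.954 for the culture differences, and for the MUC13 pair it was 0.996 for both. For MUC5AC it was 0.918 to 0.994 for line means but -0.00 to 0.90 for differences. Probe sets 217109_at and 204895_x_at of MUC4 correlated at 0.953 and 0.958, and other MUC4 pairs ranged down to -0.74 for line means. These correlations describe 8 points that share their arrays. They rest on the lines that stand out, and 12 of the 25 probe sets carry the suffix s or x, which marks probes that can read more than 1 transcript.

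**Figure D4:**
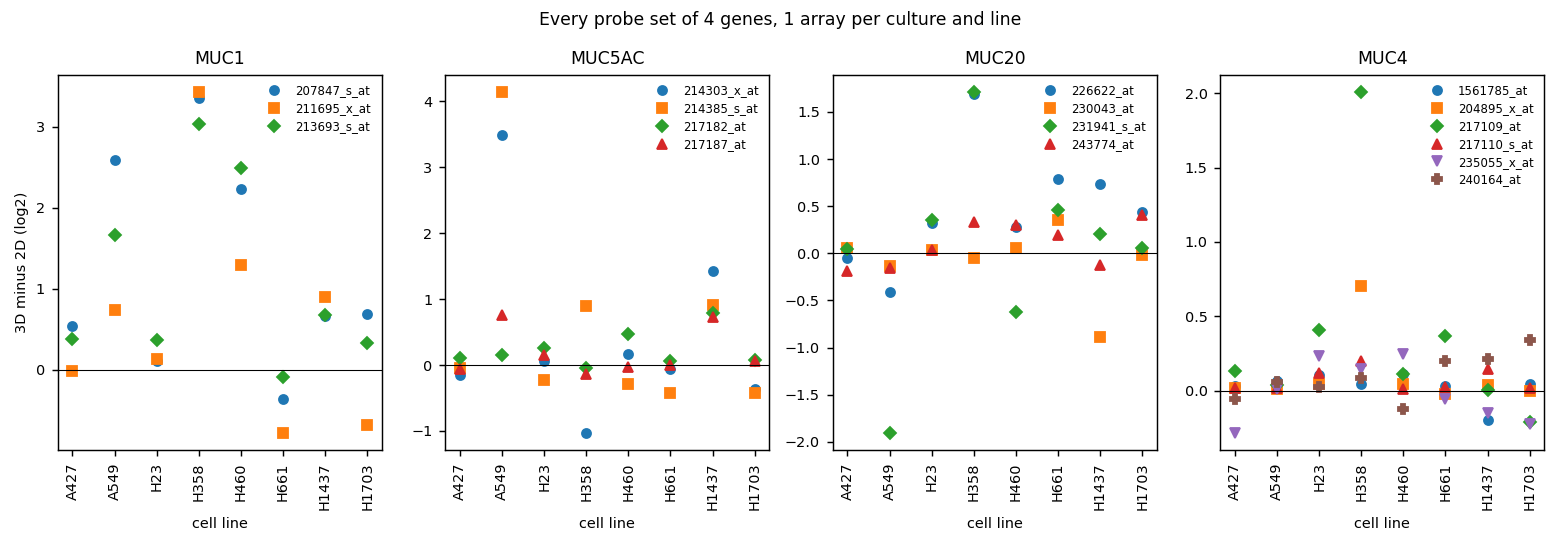
Difference of 3D minus 2D (log2) in each line for every probe set of MUC1, MUC5AC, MUC20 and MUC4, the genes with at least 3 probe sets. The MUC1 probe sets lie together in H358, while for MUC20 in A549 a single probe set lies far below the others, and for MUC5AC in H358 probe sets lie on both sides of 0.

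Genes of the same pathway were counted in lists, with 1 probe set per gene taken by the same rule as the lead. After adjustment over all probe sets, 0 of the 195 probe sets of these genes passed the limma test between cultures (22 at an unadjusted p under 0.05). Over all probe sets the shares were 2.73% and 21.7%. Those lists had 0 called of 13 measured other mucins, 0 of 32 enzymes and chaperones of mucin O-glycosylation, 0 of 22 goblet and mucus granule genes, and 0 of 21 secretory and gut-type lineage factors, against 2.96% of all genes. The median differences were 0.01, 0.13, 0.25 and 0.14, against 0.03 over all 19775 genes. Genes near the threshold included RAB27A, a GTPase of granule transport, with a mean of 0.84 (limma adjusted p = 0.061). Another was C1GALT1C1, the chaperone of the core 1 enzyme, with 1.05 (limma adjusted p = 0.071). FUT8, which was lower in 3D, lay as near, with -0.36 (limma adjusted p = 0.070). The lists held it although it adds core fucose to N-glycans and not to O-linked sugars.

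Among the pathway lists in A549, goblet and mucus granule genes had the highest share. Of them, 12 of 22 (54.5%) were at least 2-fold higher in 3D, against 4.81% of all genes. The lists were chosen with earlier results of these data known. Their shares, here and below, therefore describe the lists and cannot test for an excess over all genes. DMBT1, a secreted scavenger protein of mucosal surfaces, differed by 7.60 (log2), TSPAN8, a tetraspanin, by 6.97, and AGR2, a disulphide isomerase needed for mucin folding, by 4.92. FCGBP, a mucus protein that binds mucins, differed by 4.90, and the airway secretory proteins BPIFB1 and BPIFA1 by 4.45 and 4.09. BPIFA1 differed by 6.85 in H1437 as well, where 4 of 22 goblet genes passed 2-fold (18.2% against 2.89% of all genes). In H358 it was 5 of 22 (22.7% against 5.05%).

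O-glycosylation genes gave 9 of 32 in A549 (28.1%) and 7 of 32 in H358 (21.9%). ST6GALNAC1, which makes the sialyl-Tn antigen, differed by 4.08 in A549 and 5.57 in H358. ST3GAL1, a sialyltransferase of core 1 chains, differed by 2.97 in A549, and B3GNT6, the core 3 synthase, stood at 0.52 in 2D and 4.52 in 3D in H358. Lineage factors were split between the lines, with 9 of 21 (42.9%) in A549 and 0 of 21 in H358. In A549, FOXA3 differed by 2.66, GATA6 by 2.63 and SOX9 by 2.01. SPDEF, the transcription factor of goblet cell differentiation, was high in H1437 (3.61 in 2D and 4.23 in 3D) and differed by only 0.29 in A549. Of the other mucins, 0 of 13 passed 2-fold in A549, and in H358 MUC15, a membrane mucin, differed by 4.29 and the small mucin-like gene MUCL1 by 1.92.

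**Figure D5:**
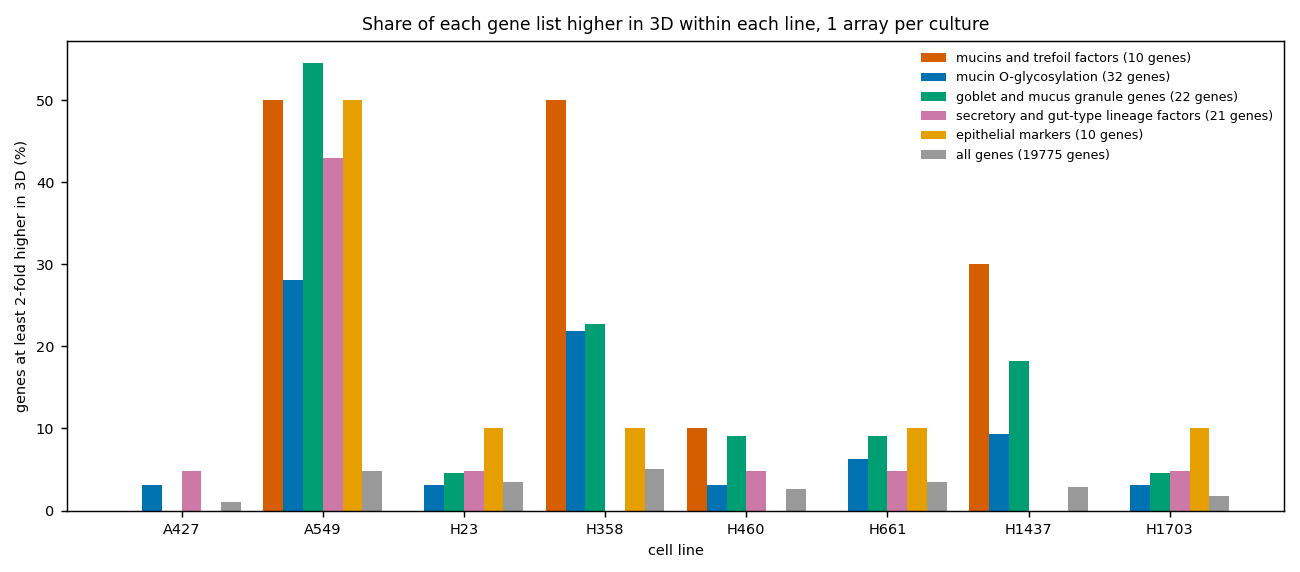
Percentage of measured genes that were at least 2-fold higher in 3D (y axis) within each line, for 5 lists (other mucins, TFF2 and the markers of non-epithelial and ciliated cells are not drawn), with all 19775 genes in grey and 1 array per culture. In A549 the lists drawn lie between 28.1% and 54.5%, against 4.81% of all genes, and in H358 the lineage factors are at 0. The lists were chosen with earlier results of these data known.

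Markers of epithelial and other cells were read in the same way. Of 10 epithelial markers, 5 were at least 2-fold higher in 3D in A549, among them CDH1, the adhesion protein of epithelial junctions, with 2.40, and the keratin gene KRT19 with 3.27. In H358 it was 1 of 10 epithelial markers. Lines differed in all 10 (limma F test, against 67.4% of all genes), and their mean ran from -3.49 to 4.76 in 2D over lines and from -3.59 to 5.23 in 3D. Of the 7 measured leukocyte markers, 1 passed 2-fold in A549 (14.3% against 4.81% of all genes). This was CD14, with 3.52, while PTPRC and CD53, broad leukocyte markers, differed by 0.12 and 0.14. Their list mean ran from -0.20 to 0.47 in 2D and from -0.26 to 0.72 in 3D. CD14 differed by 2.34 in H460 as well. Of 7 fibroblast markers, 1 passed in A549 (14.3% against 4.81%), COL1A1, with 2.97. In H460 it was 3 of 7 (42.9% against 2.64% of all genes), COL1A1 with 2.02, DCN with 1.24 and LUM with 1.03, and in H358 2 of 7 (28.6% against 5.05%), COL1A1 with 1.33 and LUM with 1.19. MUC1 was at least 2-fold higher in 3D in H460, H358 and A549. In H23, 1 of 7 fibroblast markers passed as well (14.3% against 3.53% of all genes), and MUC1 differed there by 1.08-fold. The fibroblast list mean ran from -0.33 to 4.44 in 2D and from -0.52 to 4.49 in 3D. Of 5 endothelial markers 0 passed in A549, against 4.81% of all genes. The endothelial list means ran from -0.42 to -0.03 in 2D and from -0.44 to 0.10 in 3D. Of 7 ciliated cell markers 1 passed in A549 (14.3%), TPPP3, with 3.79. The ciliated list means ran from -0.35 to 0.12 in 2D and from -0.51 to 0.46 in 3D. The part of these markers in the mucin differences was not tested. Since ratios have no zero, no marker can be called absent, and fewer cells that make a transcript cannot be told apart from less of it per cell.

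The genes whose pattern over the 16 arrays was most like each member were the airway secretory gene BPIFB1 for MUC5AC (r = 0.988), CDH17, a cadherin of the gut, for MUC13 (r = 0.998), FUT2, the fucosyltransferase of secretor status, for MUC20 (r = 0.947) and MYO1D, an unconventional myosin, for MUC1 (r = 0.902). For MUC5B it was KIF13B, a kinesin (r = 0.941), followed by CEACAM6, an epithelial adhesion molecule (r = 0.935). BBOX1 was closest to MUC4 (r = 0.977), RASD1 to MUC16 (r = 0.976), UGT1A6 to TFF1 (r = 0.996), OTUD7A to TFF3 (r = 0.999) and ITPRID1 to MUC2 (r = 0.924). The values are Pearson correlations over 16 arrays that share 8 lines, and a line that stands out for a gene weighs heavily in them. They describe likeness in these arrays only.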

How the data were processed

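RNA of 8 lung cancer lines in 2D and 3D was isolated by phenol/chloroform, with an input of 200 ng to biotin labelling, per the labels' protocols. The deposited values are log2 ratios, 1 per probe set and array; how the authors summarised probes and normalised arrays is not given in the sources used here. Of 54675 probe sets, 41097 had 1 gene symbol in the platform annotation, 1801 had several and 11777 had none, and only the first were used, with symbols updated through RefSeq (GRCh38.p14).

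The model of culture and line over all 16 arrays used limma 3.58.1 under R 4.3.3 (lmFit, eBayes with a variance trend), with no filter on dim probe sets, and Benjamini-Hochberg adjustment over the 41097 probe sets. Pairs come from the line named in the labels. The p-values between cultures set the mean difference against its spread over lines. Those of the F test set the lines against the residual of the fit. With 1 array per line and culture, that residual holds how far culture differences vary between lines. The fit was tested on simulated data. A median counted as at the reference within 0.001 log2 units. The lead probe set has the largest SD over lines of the mean of both cultures, so a difference in 1 culture of 1 line can raise it. All members are named, with, per member, the 3 most similar genes computed and, per list, the genes with the smallest p or largest difference in a line. Some of the latter were chosen after their values were seen. Members and lists were chosen with earlier results of these data known. Precision is limited by the number of arrays. Alternatives left out dim or s and x probe sets or each line, rescaled arrays, and changed the model.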

Additional observations from a re-analysis of the deposited data

Results flagged for a closer look

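There were 30 sets of 8 values (10 lead probe sets in 2D, in 3D and as 3D minus 2D). In 15 of them, the gap of an end value to the nearest other line exceeded 0.526 of the whole range. This limit would flag about 5% of sets drawn from a normal distribution. It cannot measure an excess here, because genes with several probe sets gave the one chosen for its spread over lines. The share over all probe sets was not counted. H1437 was far above the other lines in 2D for MUC5AC (5.05), MUC5B (3.77), MUC16 (5.31), TFF1 (11.02) and TFF3 (6.65). In 3D it was so for TFF1 (11.09) and TFF3 (10.07), and for the difference between cultures for TFF3 (3.41). A549 stood apart for MUC13 in 2D (0.48), in 3D (6.04) and in the difference (5.56), and for the difference in TFF1 (3.78). H358 stood apart for MUC4 in 3D (2.22) and in the difference (2.01). For MUC2, H1703 in 2D was the highest at -1.01, still below its reference.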

How the results depend on the processing

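In 189 alternative fits of the 10 lead probe sets, 0 were called between cultures (limma, lowest adjusted p 0.0751, for MUC1 without dim probe sets), and 184 kept the direction. The other 5 reversed: MUC20 became -0.087 with quantile normalization, and leaving out 1 line each gave it -0.20 to 0.32 and MUC13 -0.015 to 0.80. The number of member probe sets called between cultures was 0 in all 18 alternatives, 8 of them leaving out a line. Between lines, 14 of 25 became 8 of 13 without s and x probe sets, where fewer were tested. It became 5 to 14 when 1 line was left out, the 5 without H1437. Shares of all probe sets in these alternative F tests were not counted. For companion genes, 0 calls became 6 without dim probe sets (higher GALNT12, RAB27A, C1GALT1 and C1GALT1C1, lower FUT8 and GALNT2) and 0 to 3 when 1 line was left out, 1 without A427 (CD164) and 3 without H1437 (RAB27A in 2 probe sets, C1GALT1). The causes were not tested. Over all probe sets, 1124 calls became 2260 without dim probe sets, 475 without s and x probe sets, 4 with no replicate block, 1 with the 18S level as a covariate, and 20 (without H460) to 1336 (without A427) when 1 line was left out. Since each line has 1 array per culture, no difference within a line could be tested.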

Other observations

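Some related genes were also at least 2-fold apart between the cultures in H661 and H23, where none of the 10 genes was, each read from 1 array per culture. In H661, MUC15, a mucin outside the 10, stood at 3.28 in 2D and 5.17 in 3D, the tetraspanin gene TSPAN8 at -2.12 and 0.82, and the cadherin gene CDH1 at -2.05 and 1.89. In H23, NKX2-1, the lineage factor of distal lung epithelium, stood at 1.18 and 2.93, while CDH1 stood at 2.46 in 2D and 0.19 in 3D. In H1437, where MUC5AC, MUC5B and TFF3 passed 2-fold, MUCL1 stood at 3.40 and 5.79.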
